A study of Mus musculus with 12 samples.

Results

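Ing4 knockout cells were compared with wild-type cells after exposure to lipopolysaccharide (LPS), part of the outer membrane of Gram-negative bacteria, in RAW264.7, an established mouse macrophage line. The comparison used 4 of the 12 RNA sequencing libraries of the study, chosen by the genotype and treatment in their labels: 2 of LPS-treated Ing4 knockout cells and 2 of LPS-treated wild-type cells. All 12529 genes that passed a filter on low counts were tested, out of 54232 in the deposited table. The LPS-treated groups received 100 ng/ml of LPS for 3 h, and both genotypes were also measured without LPS, with 2 libraries each. The study further holds a Socs1 knockout with and without LPS, whose libraries enter only alternative fits, named where they are used. The labels describe the knockout as Ing4-/- in RAW264.7 cells. The sources used here do not give how the gene was disrupted or whether the knockout is 1 clone. Whether replicate libraries were grown as separate cultures is not stated in the labels either, so each p-value rests on the spread between libraries alone, and that spread may be technical. Every sample is labelled as mouse RAW264.7, although the text on the treatment speaks of the human line HEK293T.

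LPS binds Toll-like receptor 4 on macrophages and activates NF-kB, the MAP kinases that feed the transcription factor AP-1, and the interferon regulatory factors. Cytokines, chemokines and costimulatory ligands follow within hours, and secreted type I interferon then turns on the interferon-stimulated genes. ING4 is a member of the inhibitor of growth family that reads methylated histone H3 through its PHD finger and forms part of the HBO1 histone acetyltransferase complex. It has also been described as a restraint on NF-kB activity, and the title of the series groups it with the E3 ligases, enzymes that attach ubiquitin to other proteins.

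The 4 LPS-treated libraries held between 20683650 and 23816105 counts. The 10 macrophage markers checked were all measured, with summed levels between 12790 and 22510 CPM (read counts scaled to library size). Of them 0 were called different, where 0.686% of all tested genes were. Most of the sum was Lyz2, at 6610 and 7130 CPM in wild type and 8530 and 15400 CPM in the knockout. Fcgr1 was at 41.4 and 129 against 32.5 and 18.8 CPM, and Mertk had only 11 and 6 against 11 and 22 counts. Among markers of T, B and NK cells 9 of 12 had 0 counts in all 4 libraries and the summed level was 0.101 to 0.221 CPM. Neutrophil and mast cell markers summed to 1.42 to 3.26 CPM with 7 of 10 at 0, and markers of fibroblasts, epithelium, endothelium and erythroid cells to 0.095 to 0.659 CPM with 13 of 16 at 0. Mitochondrially encoded genes took 0.954% and 0.548% of the counts in the wild-type libraries and 0.749% and 2.09% in the knockout libraries. The second untreated knockout library was high as well, at 2.11%, against 0.556% in the first.

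Transcript counts of Ing4 itself (chromosome 6, 125039760 to 125049265 of GRCm38) could not serve as a check of the genotype. The gene had 6 and 2 counts in the LPS-treated wild-type libraries and 6 and 10 in the LPS-treated knockout libraries, or 0.322 and 0.101 against 0.285 and 0.553 CPM. Without LPS the counts were 10 and 5 in wild type and 6 and 29 in the knockout. Wild-type cells were therefore as low as knockout cells, and the difference after LPS did not pass the test (log2 change 0.96, SE 0.99, adjusted p = 0.784). Of the exon bases of Ing4, 34.9% are shared on the same strand with the predicted gene Gm44597, and the sources used here do not give how shared bases were counted. Other members of the ING family and HBO1 complex list were well measured. The catalytic subunit Kat7 had 114 and 96.8 CPM in wild type against 117 and 93.8 CPM in the knockout, and the scaffold Brpf1 at 94.7 and 93.4 against 112 and 94.7 CPM. Of 17 tested members of that list 0 were called, with a median log2 change of 0.16 against 0.02 over all tested genes.

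After LPS, 86 of the 12529 genes (0.686%) differed between Ing4 knockout and wild type at an adjusted p under 0.05. Fewer were higher in the knockout, 25 (0.2%), than lower, 61 (0.487%). Differences were large: 48 of the lower and 19 of the higher genes changed by more than 4-fold, and 4 of the lower genes by less than 2-fold. The costimulatory ligand Cd86, the ectoenzyme Enpp4, the matrix glycoprotein Tnc and the ceramide synthase Cers4 were among the genes nearly lost. Semaphorin 5a (Sema5a) and the membrane protein Tmem26 were among those gained. In bulk RNA fewer cells with a transcript and less of it per cell cannot be told apart. All 86 genes had both knockout libraries on 1 side of both wild-type libraries, which 37.7% of all tested genes also had, and 80 are protein coding. The median size of change over the 86 was 3.53 on the log2 scale, where 1 unit is a factor of 2. The calls come from the quasi-likelihood F-test of edgeR, fitted to the 8 wild-type and Ing4 knockout libraries and adjusted over all tested genes by the Benjamini-Hochberg method, as do all adjusted p-values below unless another tool is named. Leaving out the second LPS-treated wild-type library left 26 calls and leaving out both second knockout libraries left 21, and the fit to all 12 libraries gave 13. Leaving out the first LPS-treated wild-type library left 45, either untreated wild-type library 50, and the second LPS-treated knockout library 42.

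**Figure D1:**
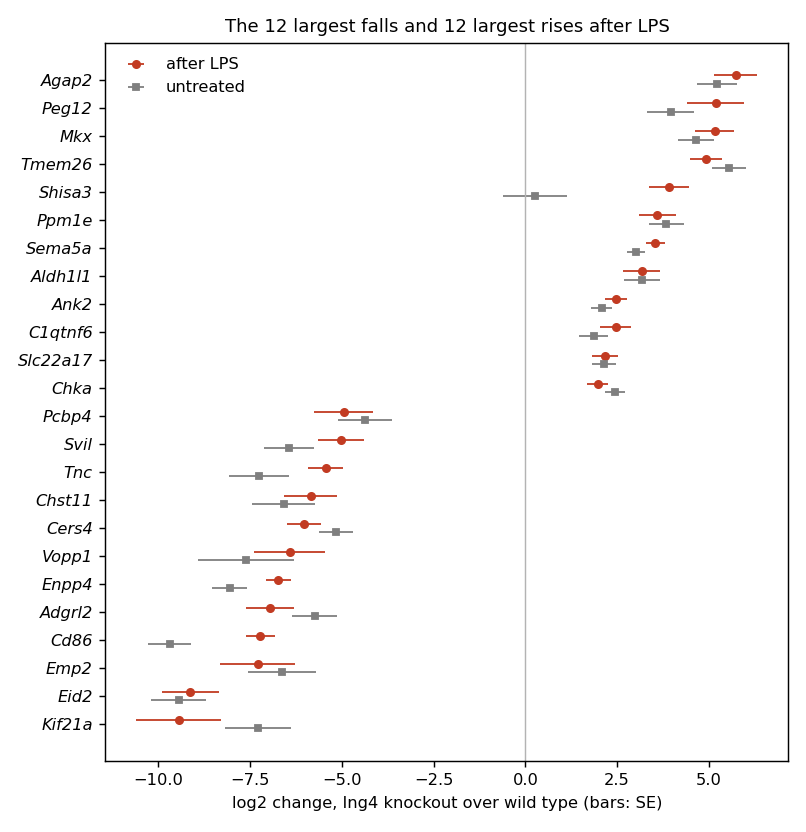
Log2 change (x axis, Ing4 knockout over wild type, bars show the standard error) of the 12 named genes that fell most and the 12 that rose most after LPS, one gene per line; circles show the LPS-treated and squares the untreated comparison. The 2 comparisons lie on the same side of 0 for all 24 genes, and Shisa3 is near 0 (0.26) only without LPS; fitted values of genes with 0 counts in a group, such as Kif21a and Eid2, depend on the prior count.

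Cell surface and secreted proteins made up several of the largest falls. Enpp4, an ectonucleotidase that hydrolyses dinucleotides at the cell surface, stood at 77.6 and 118 CPM in LPS-treated wild type and at 1.14 and 0.664 CPM in the knockout (log2 change -6.73, SE 0.34, adjusted p = 0.000369). It had the smallest adjusted p of all tested genes. Cd86, the ligand of CD28 on T cells, was at 14.7 and 17.6 CPM in wild type and at 0.095 and 0.111 CPM in the knockout (-7.22, SE 0.39, adjusted p = 0.00103). Tnc, or tenascin-C, a matrix protein of inflamed tissue that can itself signal through Toll-like receptor 4, was at 54.4 and 55.0 CPM against 1.85 and 0.609 CPM (-5.44, SE 0.49, adjusted p = 0.00555). The groups did not overlap in any of these 3 genes, which the rule for naming them required. The 3 genes lie at 44096308 to 44105809 on chromosome 17 (Enpp4), 36603869 to 36666081 on chromosome 16 (Cd86) and 63959785 to 64047015 on chromosome 4 (Tnc) of GRCm38. Wild-type cells raised all 3 in response to LPS, Enpp4 by 2.87, Cd86 by 1.71 and Tnc by 3.66 on the log2 scale. Chst11, which sulfates chondroitin, varied more between the knockout libraries, with 171 and 136 CPM in wild type and 0.713 and 4.70 CPM in the knockout (-5.85, SE 0.73, adjusted p = 0.0227). Adgrl2, the adhesion receptor latrophilin 2, had 7.14 and 7.05 CPM in wild type and 0 and 0.111 CPM in the knockout, a raw ratio of 139 with a 95% interval of 38.1 to 1152 that covers counting error only. Emp2, a tetraspan membrane protein, had 2.47 and 7.45 CPM in wild type against 0 and 0.0553 CPM (raw ratio 197, 95% interval 34.9 to 7818).

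Intracellular proteins were among the largest falls as well. Cers4, which joins long-chain fatty acids to sphingoid bases to make ceramide, had 10.7 and 10.0 CPM in wild type and 0.19 and 0.111 CPM in the knockout (log2 change -6.03, SE 0.47, adjusted p = 0.00189). Kif21a, a kinesin motor, had 5.32 and 2.99 CPM in wild type and 0 counts in both knockout libraries, and was at least 53.7-fold lower, taking 3 counts over the group as the floor. Eid2, an inhibitor of the acetyltransferase p300 (3.44 and 3.24 CPM in wild type), also had 0 counts in the knockout and was at least 43.5-fold lower. Both genes passed the test, with adjusted p of 0.0224 and 0.00846. Svil, an actin-binding protein of the cell cortex, was at 3.92 and 3.09 CPM in wild type against 0.095 and 0.111 CPM in the knockout (log2 change -5.02, adjusted p = 0.0156). Pcbp4, which binds cytosine-rich RNA, was at 2.85 and 5.47 against 0.0475 and 0.221 CPM (-4.95, adjusted p = 0.042). Vopp1 had 1.72 and 3.70 CPM in wild type and 0 and 0.0553 CPM in the knockout (raw ratio 107, 95% interval 18.8 to 4271, adjusted p = 0.0465).

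The rises were in genes of diverse function, most of them at low level in wild type. Tmem26 went from 7.79 and 7.35 CPM in LPS-treated wild type to 177 and 281 CPM in the knockout (log2 change 4.92, SE 0.44, adjusted p = 0.00555). Sema5a, a guidance protein better known from neurons, went from 9.77 and 6.79 to 86.1 and 106 CPM (3.54, SE 0.26, adjusted p = 0.00188). Chka, the kinase that starts phosphatidylcholine synthesis from choline, had 15.9 and 10.3 CPM in wild type against 62.1 and 40.3 CPM in the knockout (1.97, SE 0.28, adjusted p = 0.0243). Each of the 3 genes was separated between genotypes by more than the spread within either, but libraries that do not overlap were a condition for naming them. Tmem26 lies at 68723646 to 68782650 on chromosome 10 and Sema5a at 32244810 to 32696341 on chromosome 15.

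Several further rises started from less than 1 CPM. Agap2, an activating protein for Arf GTPases, had 0.161 and 0.152 CPM in wild type and 11.5 and 5.75 CPM in the knockout (log2 change 5.74, SE 0.59, adjusted p = 0.00601). Mkx, the tendon homeobox factor Mohawk, had 0.161 and 0.0507 against 4.04 and 3.82 CPM (5.15, SE 0.54, adjusted p = 0.00624), and the imprinted gene Peg12 had 0.215 and 0 against 4.66 and 3.38 CPM (5.18, SE 0.78, adjusted p = 0.0328). Ppm1e, a serine and threonine phosphatase, had 0.483 and 0.456 against 4.37 and 7.08 CPM (3.59, adjusted p = 0.0243). C1qtnf6, a secreted relative of complement C1q, had 0.967 and 0.912 against 6.46 and 3.87 CPM (2.46, adjusted p = 0.0493) and lay just inside the threshold. Aldh1l1, an enzyme of folate metabolism, Ank2, a membrane scaffold, and Slc22a17, a receptor for lipocalin 2, started above 1 CPM. Their levels in LPS-treated wild type were 1.66 and 1.37, 4.89 and 3.55, and 1.99 and 1.67 CPM. These 3 genes rose by 3.17, 2.47 and 2.17 with adjusted p of 0.0394, 0.0124 and 0.0395.

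**Figure D2:**
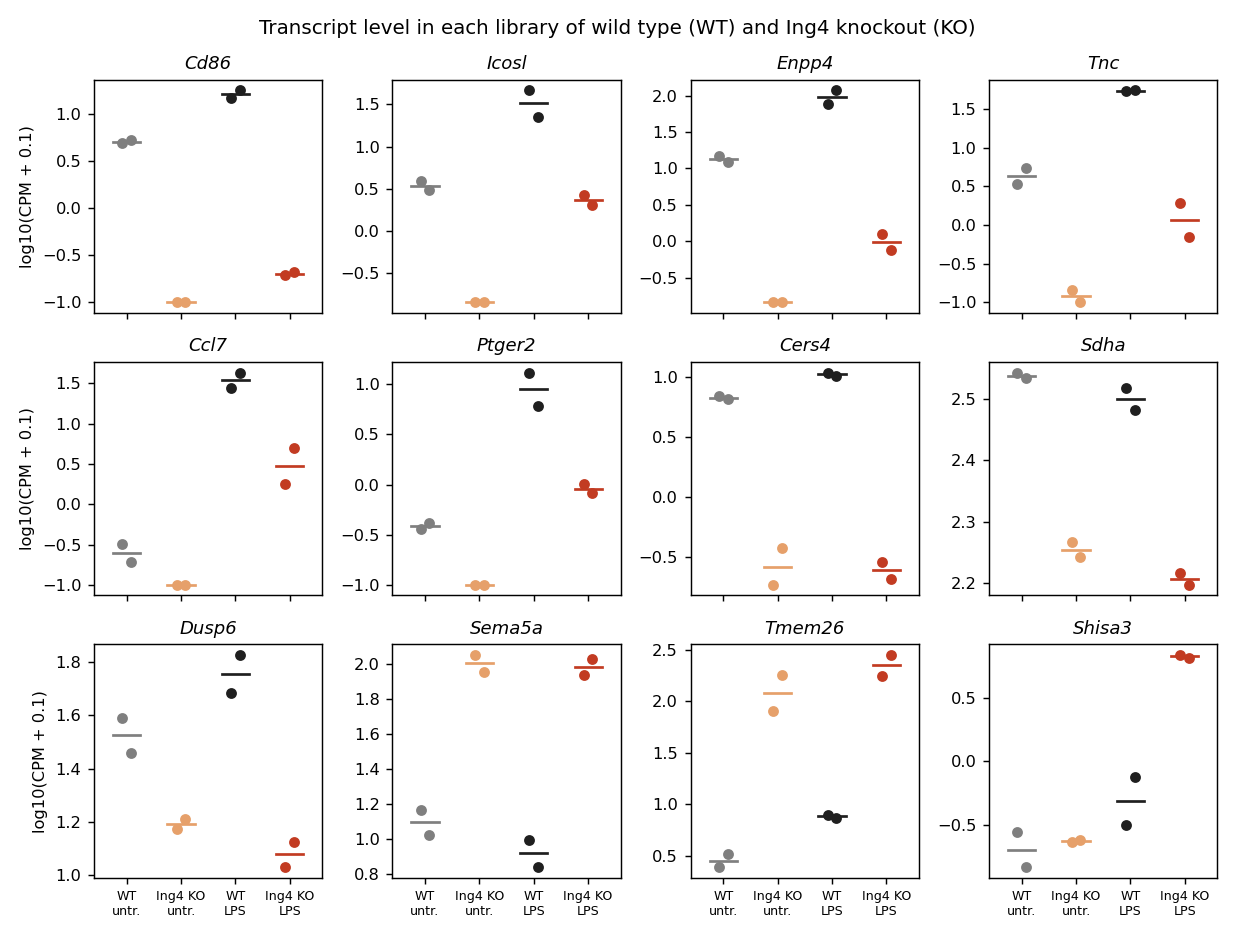
Transcript level of 12 genes in each library (points) with the mean of the 2 transformed values (bars), on the y axis as log10(CPM + 0.1) with a separate scale for each gene, in wild type and Ing4 knockout with and without LPS. For Cd86 the knockout libraries lie at 0.095 and 0.111 CPM after LPS against 14.7 and 17.6 CPM in wild type, and for Shisa3 the groups separate after LPS but not without it; -1 stands for 0 CPM.

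Genes called in the lists of macrophage, immune and general cell functions were all lower in the knockout, and most lists held none. Over all tested genes 61 of the 86 calls were lower as well, so the shared direction is not read as a trait of the lists. The 34 lists hold 911 symbols, of which 910 were in the table and 815 were tested. In 9 lists at least 1 member was called, and in 0 lists did a member rise. With 0.686% of all tested genes called, a count of 0 or 1 in a list is near the background. For the lists, medians are of the fitted log2 changes, and the SD of a list joins the spread of its per-library medians within both groups (root of the summed squares).

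Costimulation and antigen presentation held 3 of these falls. In the list of MHC class II and costimulation 2 of 15 tested members fell, Cd86 and Icosl, and the median log2 change was -0.72. Its 4 members on chromosome 17 had a median of -1.26, and over the other members it was -0.27. Icosl, the ligand of the T cell receptor ICOS, was at 46.3 and 22.6 CPM in wild type and 2.56 and 1.94 CPM in the knockout (log2 change -3.93, SE 0.39, adjusted p = 0.0059). H2-M3, a class I molecule that presents formylated peptides of bacteria and mitochondria, was at 60.8 and 87.3 CPM against 23.4 and 28.6 CPM (-1.51, SE 0.21, adjusted p = 0.0254). It was the only call among 22 tested genes of class I presentation, of which 20 had a negative log2 change, with a median of -0.35. Of those 22 genes 12 lie on chromosome 17, where the median was -0.45, and over the other members it was -0.25.

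Chemokine genes and their receptors gave 3 falls. Ccl7, a chemokine that draws monocytes, was induced by LPS in wild type, from 0.219 and 0.0905 CPM to 28.0 and 43.0 CPM. In the LPS-treated knockout it reached 1.71 and 4.87 CPM (log2 change -3.44, SE 0.51, adjusted p = 0.0465). Pf4, or Cxcl4, a chemokine also stored in platelets, was at 4.51 and 4.26 CPM in wild type and 0.142 and 0.277 CPM in the knockout (-4.37, SE 0.45, adjusted p = 0.00601). The 2 genes were the only calls among 19 tested chemokines, whose median log2 change was -0.32 with a range of -4.37 to 3.03. Ccr1, a receptor for inflammatory chemokines, was at 7.79 and 12.98 against 0.57 and 0.996 CPM (-3.73, SE 0.51, adjusted p = 0.0233). It was the only call among 27 chemokine and cytokine receptors, with a list median of 0.09.

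Receptors and enzymes of other macrophage functions also fell singly. Axl, a receptor tyrosine kinase that recognises dying cells and dampens Toll-like receptor signalling, was at 56.1 and 65.2 CPM in wild type and 17.6 and 9.63 CPM in the knockout (log2 change -2.15, SE 0.31, adjusted p = 0.0282). It was 1 of 20 tested scavenger and C-type lectin receptor genes, whose median was 0.21. Ptger2, the prostaglandin E2 receptor EP2, was at 12.9 and 5.98 CPM against 0.903 and 0.719 CPM (-3.53, SE 0.49, adjusted p = 0.0328), and the other 16 tested genes of the prostaglandin and leukotriene pathway were not called. Mmp12, the macrophage elastase, was at 10.6 and 17.1 CPM against 0.665 and 0.443 CPM (-4.62, SE 0.45, adjusted p = 0.0059). Lamb2, a laminin chain, was at 4.14 and 4.66 against 0.19 and 0.166 CPM (-4.58, SE 0.46, adjusted p = 0.0059). Mmp12 and Lamb2 were the 2 calls among 30 genes of adhesion, matrix and proteases, with a median of 0.01. In the sphingolipid list Cers4 was the only call among 26 genes, and the median was 0.04.

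Oxidative phosphorylation genes gave 2 calls among 33, against 0.686% of all tested genes. Chchd10, a small protein of the mitochondrial intermembrane space, was at 8.38 and 10.5 CPM in wild type and 0.475 and 0.111 CPM in the knockout (log2 change -4.94, SE 0.49, adjusted p = 0.0059). Of its exon bases 11.4% are shared with genes on the other strand. Sdha, the flavoprotein subunit of succinate dehydrogenase, fell less, from 329 and 303 CPM to 164 and 158 CPM (-0.97, SE 0.15, adjusted p = 0.0357). Of the 33 genes 31 had a negative log2 change, with a median of -0.17; over all 12529 tested genes 5956 were negative. By library, the median distance of the list from the wild-type mean was -0.03 in the first knockout library and -0.36 in the second, the library with the high mitochondrial share. With both second knockout libraries left out, a choice made after seeing the data, the list median was -0.03. Why the second library differed was not tested.

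Core LPS response genes were not called, except that Nos2 and Il10 passed the test when no filter on low counts was used. Tnf was at 6815 and 8469 CPM in LPS-treated wild type and 7960 and 3701 CPM in the knockout (log2 change -0.39, SE 0.38, adjusted p = 0.774). Il1b was at 2552 and 2629 against 2388 and 2178 CPM (-0.18, SE 0.20, adjusted p = 0.799). Both encode cytokines of the NF-kB arm and are among the first that macrophages release. Il6 was at 15.5 and 16.0 against 39.8 and 8.02 CPM (0.61, SE 0.71, adjusted p = 0.817), so that the 2 knockout libraries lay on either side of wild type. Nos2, the inducible nitric oxide synthase, was at 110 and 412 against 129 and 103 CPM (-1.17, SE 0.68, adjusted p = 0.622). Of the interferon-driven genes, Cxcl10 was at 1225 and 2597 against 2115 and 1213 CPM (-0.20, adjusted p = 0.919) and Ifit1 at 669 and 1882 against 1755 and 1782 CPM (0.47, adjusted p = 0.808). The libraries of the 2 genotypes overlapped in 5 of these 6 genes, Il1b being the exception. The 95% interval of the log2 change ran from -1.25 to 0.47 for Tnf and from -0.63 to 0.27 for Il1b. Il10, the anti-inflammatory cytokine, was at 1.40 and 0.203 CPM in wild type and 3.80 and 24.2 CPM in the knockout. Its groups did not overlap, but the log2 change of 4.13 (SE 1.18, unadjusted p = 0.00936) had an adjusted p of 0.274. The authors' deposited table of changed genes does list Il10, as higher in the knockout, with a log2 change of 2.68. That value is shrunken toward 0, unlike the 4.13 given here.

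Across the pathways behind these genes the count of calls was 0, which at 0.686% over all tested genes is near the background for lists of this size. None was called among 34 NF-kB inflammatory targets (median log2 change 0.15), 35 Toll-like receptor pathway components (0.10), 32 negative regulators of Toll-like receptor signalling (0.10), 26 JAK-STAT and SOCS genes (0.02), 25 immediate early genes (-0.04) or 34 macrophage identity genes (0.04). Of 50 type I interferon-stimulated genes 35 had a negative log2 change, with a median of -0.17. The 2 wild-type libraries stood 0.556 below and 0.556 above their mean for that list, and the knockout libraries at -0.01 and -0.19. The interferon genes thus differed more between the 2 wild-type libraries than between genotypes. For the unfolded protein response (29 genes, median -0.48) and glycolysis (32 genes, -0.43) the list medians were further from that of all genes, with 0 calls. The knockout libraries stood at -0.24 and -0.76 for the former and -0.50 and -0.25 for the latter, and the SD was 0.37 and 0.42. All 38 cytosolic ribosomal protein genes had a negative log2 change (median -0.24, 0 calls), with -0.01 in the first knockout library and -0.52 in the second. With both second knockout libraries left out, the median of that list was -0.01.

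**Figure D3:**
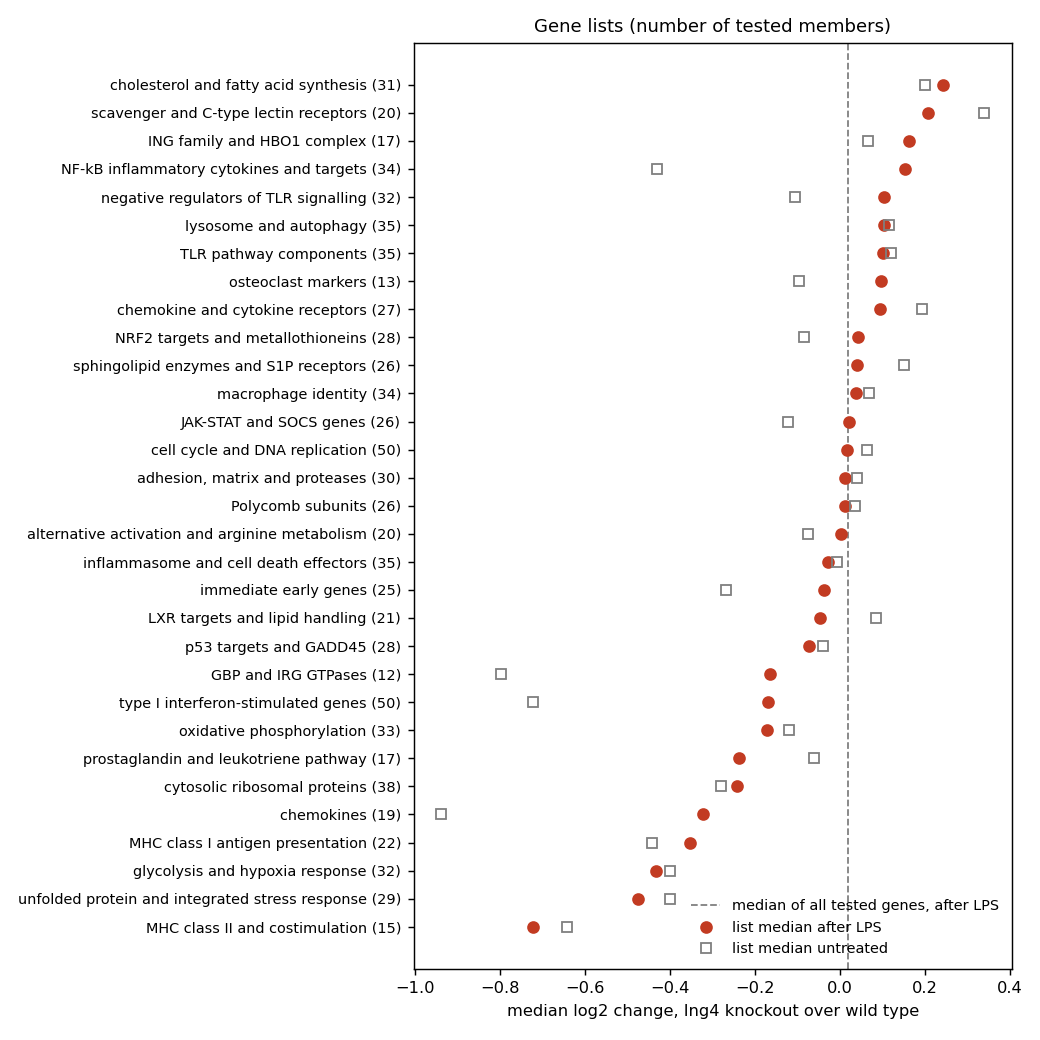
Median log2 change of each gene list with at least 5 tested members (x axis, Ing4 knockout over wild type; number of tested members in brackets), filled circles after LPS and open squares without LPS; the dashed line is the median of all tested genes after LPS (0.02). The list of MHC class II and costimulation has the lowest median after LPS (-0.72, but -0.27 without its 4 members on chromosome 17, when the unfolded protein response at -0.48 is lowest), and chemokines have a lower median without LPS (-0.94) than with it (-0.32).

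Further genes of macrophage signalling were found among the 86 calls and are named here after their values were seen. Notch1, a receptor that sets cell fate and tunes inflammatory responses, was induced by LPS in wild type (3.20 and 3.12 to 15.4 and 14.8 CPM) and stood at 0.665 and 0.941 CPM in the LPS-treated knockout (log2 change -4.23, adjusted p = 0.00688). Flt1, a receptor for vascular endothelial growth factor, was at 11.8 and 9.53 against 1.47 and 1.72 CPM (-2.74, adjusted p = 0.00665). Pla2g5, a secreted phospholipase A2, was at 21.9 and 25.6 against 2.66 and 2.88 CPM (-3.10, adjusted p = 0.00188). Trpv4, a calcium-permeable channel, and Itpr2, a calcium release channel of the endoplasmic reticulum, fell by 4.28 and 1.37. Slc40a1, the iron exporter ferroportin, fell by 2.48 on the log2 scale (adjusted p = 0.0328). Tanc1, a scaffold protein, was at 36.3 and 47.5 CPM in wild type and 1.38 and 2.05 CPM in the knockout, with the second smallest adjusted p of the table (0.000737). Among the gains was Hoxc4, a homeobox gene, at 0.215 and 0.0507 CPM in wild type and 2.00 and 1.77 CPM in the knockout (log2 change 3.79, adjusted p = 0.0426).

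Most of these differences were also present without LPS. In the untreated cells 94 genes (0.75%) were called, 29 higher and 65 lower, with group means from 4 libraries that are not in the means of the LPS comparison. The 2 call lists are not independent, since both comparisons take their spread from the same fit to 8 libraries, and the LPS calls fell to 50 without either untreated wild-type library. Within a genotype, the untreated and LPS-treated libraries of the same replicate number also deviated together, with correlations across genes of 0.462 in wild type and 0.614 in the knockout. Both comparisons called 70 genes, 81.4% of the LPS list and 74.5% of the untreated list, 21 higher and 49 lower in both and 0 in opposite directions. Of the 86 genes called after LPS, 85 had the same sign without it, and 84 were also separated in the same direction between the untreated libraries. The matching shares over all tested genes were not computed, so these counts stand without a background. Enpp4 was at 14.6 and 12.3 CPM in untreated wild type and 0.0436 and 0.0461 CPM in the untreated knockout (log2 change -8.05, adjusted p = 0.000705). Cd86 was at 4.78 and 5.11 CPM against 0 counts in both untreated knockout libraries. Sema5a was at 14.5 and 10.5 against 112 and 89.7 CPM (3.02, adjusted p = 0.00418). In none of these 3 genes did the untreated groups overlap.

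**Figure D4:**
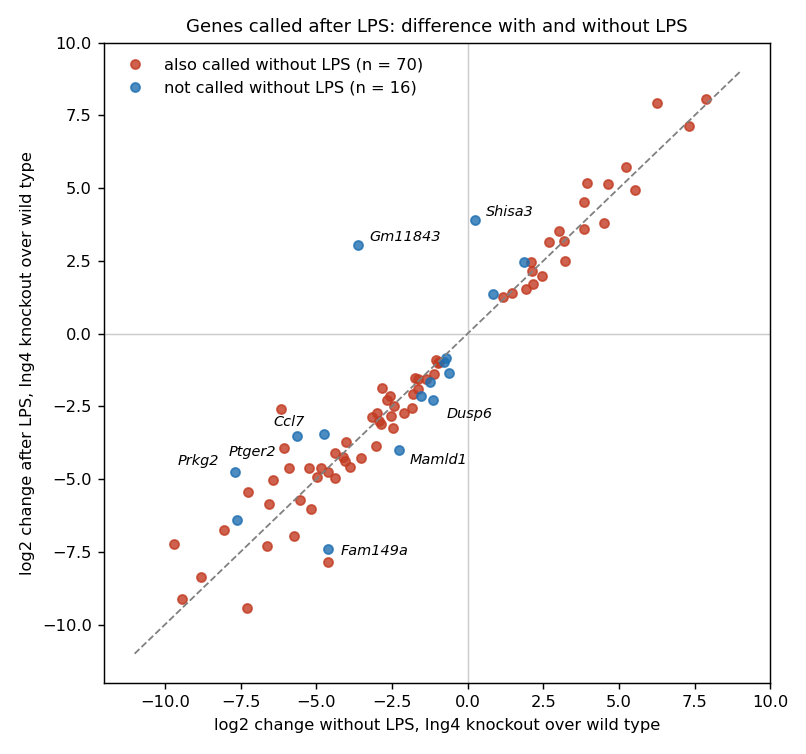
Log2 change after LPS (y axis) against log2 change without LPS (x axis), Ing4 knockout over wild type, for the 86 genes called after LPS, with the dashed line of equal values; the 70 genes also called without LPS and the 16 not called without it are marked. All but Gm11843 lie in the quadrants of equal sign; its untreated value rests on at most 2 counts a library.

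No gene passed the test of whether the difference between genotypes itself changed with LPS (0 of 12529, 0%). That interaction test found 136 genes at an unadjusted p under 0.05, with edgeR's smallest adjusted p at 1, and limma-voom called 0. DESeq2 called 1, Egr2, a transcription factor of the early growth response family. Egr2 was at 12.6 and 8.87 CPM in untreated wild type and 2.48 and 1.52 CPM in the untreated knockout. After LPS it was at 20.2 and 12.8 CPM against 20.2 and 47.8 CPM. The knockout libraries lay below wild type without LPS and overlapped it with LPS (log2 difference 3.45, DESeq2 adjusted p = 0.000515; in edgeR the unadjusted p was 0.000706). With a separate replicate block within each genotype, edgeR called 1 gene, Saa3, an acute-phase protein that LPS induces in macrophages. Saa3 was at 5.62 and 20.5 against 0.479 and 1.01 CPM without LPS and at 124 and 365 against 240 and 223 CPM with it (log2 difference 3.99, adjusted p = 0.0417 with the block).

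The 16 genes called after LPS but not without it were Dusp6, Shisa3, Fam126b, Ptger2, Map3k4, 3300005D01Rik, Nsd1, Sulf2, Mamld1, Vopp1, Ccl7, Ppp1r18, Prkg2, Fam149a, Gm11843 and C1qtnf6, named as a set after their values were seen. In 4 of them the unadjusted interaction p was under 0.05, and in 0 was the adjusted one. Dusp6, the phosphatase that switches off the kinase ERK, was at 48.3 and 66.8 CPM in LPS-treated wild type and 10.6 and 13.3 CPM in the knockout (log2 change -2.27, SE 0.24, adjusted p = 0.00644). Without LPS it was at 38.8 and 28.7 against 14.8 and 16.2 CPM (-1.13, adjusted p = 0.0935), and the log2 difference of -1.14 had a 95% interval of -1.88 to -0.40. Shisa3, an endoplasmic reticulum protein that holds back Wnt and FGF receptors, was at 0.215 and 0.659 CPM in wild type and 6.89 and 6.53 CPM in the knockout after LPS (3.91, SE 0.55, adjusted p = 0.0254). Without LPS it stayed at 0.176 and 0.0453 against 0.131 and 0.138 CPM (0.26, adjusted p = 0.966), so the untreated groups overlapped. Its interaction had an unadjusted p of 0.00979 and an adjusted p of 1. Nsd1, a histone H3 methyltransferase, was at 5.53 and 6.24 against 1.80 and 1.88 CPM after LPS (-1.67, adjusted p = 0.0394) and fell short of the threshold without it (-1.25, adjusted p = 0.0921). Without LPS, Ptger2 had 6 and 7 counts in wild type and 0 in both knockout libraries (unadjusted p = 0.00311, adjusted p = 0.17 by edgeR), and Ccl7 had 5 and 2 counts against 0 in both. Their untreated groups were thus also separated, at few counts and short of the threshold.

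Nearest to the threshold, just inside it, were Fam149a (adjusted p = 0.0489), Gm11843 and C1qtnf6 (both 0.0493). Just outside were the early response gene Ier3 (log2 change -1.61), the macrophage transcription factor Maf (-3.95) and the glycosyltransferase Ggta1 (-1.48), each with an adjusted p of 0.0537. Single calls depended on which libraries entered. The sign could hardly turn, because in every called gene both knockout libraries lay on the same side of both wild-type libraries. Of the 35 named genes that were called, 21 lost their call without the second LPS-treated wild-type library, 14 without the first, 14 and 16 without the first and second LPS-treated knockout library, and 29 in the fit to all 12 libraries, each with the same sign. Enpp4 and Tnc kept theirs in 20 of 21 alternatives, Cd86 in 18 of 20, Sdha in 7 of 21 and C1qtnf6 in 6 of 20.

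Some of the same genes were low or high in the Socs1 knockout as well, which shares the wild-type libraries as its reference, and their levels are set side by side here. Cers4 was at 0.122 and 0.112 CPM and Pf4 at 0.0815 and 0.337 CPM in the LPS-treated Socs1 knockout. Emp2 at 0.204 and 0.0562 CPM and H2-M3 at 16.5 and 18.8 CPM were also low in its 2 libraries. Hoxc4 was high in them, at 1.51 and 2.30 CPM. Cd86 was at 0.163 CPM in the first and 11.4 CPM in the second of those libraries, and Adgrl2 at 0.692 and 9.22 CPM. For these 2 genes the untreated Socs1 knockout libraries were also split, at 0 and 2.14 CPM for Cd86 and at 0.52 and 6.07 CPM for Adgrl2. Sema5a stayed at 5.50 and 5.84 CPM and Chchd10 at 5.42 and 5.96 CPM, closer to wild type than to the Ing4 knockout. These genes are examples, and how many of the called genes went either way was not counted.

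Promoter sequences of the called genes were searched for the letters of motifs that LPS-activated factors are known to bind. Of the 86 genes 69 had a RefSeq promoter in the table used. In the 250 bases before a start site, on both strands, the kappaB letters (GGG, 3 free bases and TTCC) were found for 1 of 47 lower genes (2.1%), the AP-1 letters TGANTCA for 2 (4.3%) and the interferon response letters (TTTC, 2 free bases and TTTC) for 2 (4.3%). Among 22 higher genes the counts were 0, 1 and 1 (0%, 4.5% and 4.5%). The shares over 9205 tested genes with a promoter were 6.3%, 5.4% and 3.5%, and over all 27025 genes with a listed promoter they were 5.3%, 7.8% and 3.5%. The kappaB and AP-1 matches of the called genes are shown with their flanks, 60 bases each from RefSeq on GRCm38.p6, 5′ to 3′ on the gene's strand, with the match in capitals; a match is a description of letters and not a bound site. Mmp12 (chr9:7347304-7347363, plus strand) and 3300005D01Rik (chr17:5798428-5798487, plus strand) fell and C1qtnf6 (chr15:78529787-78529846, minus strand) rose, and Ppp1r18 (chr17:35866521-35866580, plus strand), a phosphatase regulator that binds actin, fell from 244 and 262 to 141 and 140 CPM.
Mmp12: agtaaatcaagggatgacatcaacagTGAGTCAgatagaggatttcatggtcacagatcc
3300005D01Rik: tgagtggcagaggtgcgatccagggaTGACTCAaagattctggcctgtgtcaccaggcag
C1qtnf6: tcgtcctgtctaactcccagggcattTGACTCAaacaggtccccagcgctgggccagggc
Ppp1r18: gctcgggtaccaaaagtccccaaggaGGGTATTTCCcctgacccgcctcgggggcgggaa
The match begins 203 bases before the listed start of 3300005D01Rik and 169 before that of C1qtnf6, which lies inside the GENCODE gene (78523346 to 78531416). In Mmp12 it begins 44 bases before the second of 2 listed starts, also inside the gene (7344381 to 7369499), and the first has no match. In Ppp1r18 it begins 68 bases before the last of 4 listed starts, inside the gene (35865593 to 35875596), and the others have none. In LPS-treated wild type and knockout, 3300005D01Rik stood at 22.2 and 18.7 against 7.65 and 8.47 CPM.

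Called genes were spread over the genome, with 2 pairs of neighbours among them, both in 1 stretch of chromosome 13. There Pdcd6 (74303509 to 74317580 of GRCm38), a calcium-binding protein of vesicle transport, Sdha (74322254 to 74350280) and Ccdc127 (74350309 to 74365783) lie side by side and all fell, by 1.01, 0.97 and 0.91 on the log2 scale. Pdcd6 was at 105 and 118 CPM in wild type and 50.4 and 60.1 CPM in the knockout, and Ccdc127 at 45.5 and 42.6 against 24.3 and 22.7 CPM. Without LPS the 3 log2 changes were -0.98, -0.94 and -1.05. The tested neighbours on either side were not called, with 0.16 for Exoc3, -0.30 for Ahrr and -0.01 for Zfp72. Of the exon bases of Ccdc127, 28.8% are shared with a gene on the other strand.

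Chromosome 17 as a whole had the lowest median log2 change of all autosomes, -0.18 after LPS over 655 tested genes and -0.17 without LPS. The shift did not cover the whole chromosome. Among genes with a mean of at least 5 CPM, the 319 from 30 Mb onward had a median of -0.31 after LPS and 86.8% were negative, whereas the 179 before 30 Mb had a median of 0.11. A similar stretch was found on chromosome 12, where 117 genes before 60 Mb had a median of -0.34 (90.6% negative) and the 220 beyond it 0.03. On all other chromosomes together 8700 genes had a median of 0.03, and 44.4% were negative. The boundaries were chosen after the values had been seen in windows of 10 Mb. Untreated medians were alike, -0.34 in both stretches. In single libraries, the distance from the wild-type mean was -0.30 and -0.31 for the stretch on chromosome 17 and -0.38 and -0.33 for that on chromosome 12 in the LPS-treated knockout. The 2 wild-type libraries lay within 0.077 and 0.045 of their mean. The LPS-treated Socs1 knockout, read against the same wild-type libraries, lay at -0.30 and -0.37 for the former and -0.46 and -0.34 for the latter. Of the genes given above with their levels, Enpp4, H2-M3, Ppp1r18 and Tnf lie in the stretch on chromosome 17.

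**Figure D5:**
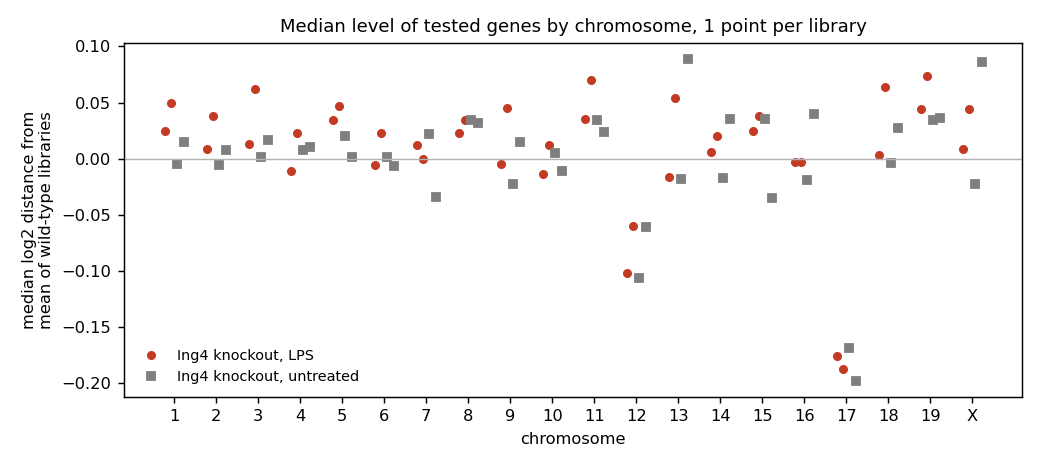
Median log2 distance of the tested genes of each autosome and of X from the mean of the wild-type libraries of the same treatment (y axis), 1 point per Ing4 knockout library, circles with LPS and squares without. Of these, chromosome 17 lies lowest in all 4 libraries (-0.18 and -0.19 with LPS), followed by chromosome 12 (-0.10 and -0.06).

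The authors' deposited table for the same comparison lists 117 genes, 35 higher and 82 lower in the knockout, with adjusted p-values up to 0.0462. All 117 were tested here and had the same sign. The smallest change the authors list is -1.002 on the log2 scale (Cd276). Their values are shrunken toward 0 and those here are not, as for Tnc with -2.72 against -5.44. The calls here had no cut on size. Called in both were 57 genes, 48.7% of the authors' list and 66.3% of the list given here. The authors' deposited table does not hold 29 genes called here, Cd86 among them. Genes it lists that were not called here include Il10, Ier3, Maf, Ccl2, Ccl12 and Osm.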

How the data were processed

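RNA was measured in RAW264.7 cells. Per the labels, poly(A) RNA was made into stranded libraries. The count values are whole reads per Ensembl gene in 1 table that the authors deposited without scaling. HISAT, StringTie, HTSeq, DESeq2 and FastQC are named, without version or setting, per the submitters' processing notes, which give the human build GRCh38. All gene identifiers are mouse, and GENCODE positions on GRCm38 were used. The authors' deposited table of changed genes holds a shrunken log2 fold change and an adjusted p-value per gene, per the file headers.

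The 8 wild-type and Ing4 knockout libraries (4 groups of 2, 4 residual degrees of freedom) were fitted in R 4.3.3 with edgeR 4.0.16: filterByExpr, TMM scaling, robust quasi-likelihood, calls at an adjusted p under 0.05. The shared biological coefficient of variation was 0.214. The SE of a log2 change is its size divided by the square root of F. Printed CPM use TMM factors over all 12 libraries. The Socs1 knockout libraries were left out of the fit because an earlier report on these data describes 1 of them that stands apart. Bounds for groups with 0 counts take 3 counts over the group, and intervals of raw ratios are exact binomial ones at 95%. Per-library list and chromosome medians are of log2(CPM + 0.1). The fit was tested on simulated data.

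The comparison, gene lists and rules were chosen with earlier results of these data known. Named are Ing4, 7 LPS response genes, up to 12 rises and 12 falls with the largest change (symbol not a predicted or clone name, at least 2 CPM in the higher group, libraries not overlapping), up to 5 interaction calls each way, and up to 4 called members of each list, which gave 43 genes of which 35 were called. Alternatives were DESeq2 1.42.0, voom of limma 3.58.1, other scalings, filters, libraries, thresholds and a replicate block. Of the table's columns 0 were left unmatched, and all rows name a gene.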

Additional observations from a re-analysis of the deposited data

How the results depend on the processing

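Of the called named genes, 509 results over the alternatives kept their call and 206 lost it with the same sign, with 0 reversed. The absence of reversals is no separate check, since the libraries of every called gene did not overlap between genotypes. Sema5a kept its call under all 21 alternatives that tested it and Cers4 and Chchd10 under all 20. The 86 calls after LPS became 293 with DESeq2, 817 without a filter, 26 at a mean of at least 5 CPM, 13 with all 12 libraries, 40 with 11, 47 against a fold of 1.5 and 27 at an adjusted p of 0.01. Scaling by RLE gave 86, upper-quartile scaling 88, voom 89 and the 4 LPS libraries alone 72. Not all of these were the same genes, since 86, 83, 68 and 57 of them are among the 86. Leaving out 1 library gave 26 to 78 calls (an arm with 1 library is then assumed to vary like the others), and leaving out both second knockout libraries, chosen after seeing the data, 21. The 94 untreated calls became, in the same order, 267, 722, 35, 18, 46, 61 and 27, then 19 to 122 and 25. The 0 interaction calls became 1 with DESeq2 and 39 without a filter. The number of genes tested after LPS also differed, from 9534 at a mean of at least 5 CPM to 22880 without a filter. The cause of these moves was not tested.

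The replicate number as a block gave 185 calls after LPS, which include all 86, and 163 untreated. The block for each genotype and replicate number gave 1 interaction call. Replicate differences correlated at 0.141 between LPS-treated genotypes and 0.038 between untreated ones, against 0.462 and 0.614 between treatments within wild type and the knockout, and the labels do not say that a number marks a shared batch, so the numbers were not taken as pairs across genotypes.

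Of the named genes that were not called, Nos2 and Il10 passed the test without a filter, and others reversed sign. With 1 library left out, the log2 change of Cxcl10 ran from -0.66 to 0.44 (positive without the second LPS-treated wild-type library, and 0.15 without the second LPS-treated knockout library), and it was 0.16 without both second knockout libraries. Ifit1 ran from -0.089 (without the first LPS-treated wild-type library) to 1.40, Il6 from -0.97 (without the first LPS-treated knockout library) to 1.34 and Nos2 from -1.83 to 0.071 (without the second LPS-treated wild-type library). Tnf ran from -1.05 to 0.061 (without the second LPS-treated knockout library) and was 0.065 without both second ones. The cause was not tested. List medians stayed within the spread between libraries in 587 cases and moved beyond it in 20; without both second knockout libraries the median was -0.01 for ribosomal proteins and -0.03 for oxidative phosphorylation. Depth limits genes under about 1 CPM. On the printed scale 3 counts are 0.161 and 0.152 CPM in the LPS-treated wild-type libraries and 0.142 and 0.166 CPM in the LPS-treated knockout libraries.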
